A study of Mus musculus with 16 samples.

Results

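Growth arrest and damage genes linked to the tumour suppressor p53 were followed in the mouse hippocampus after status epilepticus (SE), a prolonged seizure. The set was given by name and held 10 genes: Gadd45a, Gadd45b, Gadd45g, Cdkn1a, Btg1, Btg2, Bbc3, Mdm2, Trp53inp1 and Bcl2l11. A gene was measured through the probe set that carried its symbol alone, so 9 of the 10 were measured, of 22180 genes in all. The 1 probe set that names Gadd45a also names another transcript, E230016M11Rik, and Gadd45a was therefore not analysed here. Each of the other 9 genes had 1 probe set.

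Affymetrix arrays had been hybridised with hippocampal RNA of C57BL/6 mice of 8 to 10 weeks, 16 arrays in 4 groups of 4, each titled as a numbered mouse; should any share an animal, the p-values measure the spread between arrays only. Astro-D2KO mice with SE and Astro-D2KO mice given saline carried floxed Dio2, which encodes the type 2 deiodinase that makes the thyroid hormone T3, together with a glial Cre. Control mice with SE and control mice given saline carried the same glial Cre on a wild-type Dio2. All mice had received lithium chloride (10 mEq/kg), and 18 h later the SE groups received pilocarpine (65 mg/kg) and the others saline, so the drug and the seizures cannot be told apart. No source used here names the promoter of the Cre, the sex of the mice or the time between pilocarpine and tissue collection. Values below are log2 array levels from the authors' RMA processing, and a difference of 1 is a 2-fold change.

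p53 is held low by the ubiquitin ligase that Mdm2 encodes, and rises in protein when DNA is damaged. It then switches on inhibitors of the cell cycle such as Cdkn1a, the feedback gene Mdm2 and killer genes such as Bbc3. Many of these genes are also induced without p53: in neurons, synaptic activity and calcium switch on Gadd45 and Btg genes, and FOXO factors switch on Bcl2l11.

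The targeted gene was checked first. Dio2 stood at 6.75, 6.52, 7.09 and 6.77 in Astro-D2KO saline mice, against 7.87, 8.25, 8.17 and 8.28 in control saline mice, without overlap (difference -1.36, exact two-sided permutation p = 0.0286, the smallest that 4 against 4 arrays allow). After SE it stood at 8.91, 7.03, 7.17 and 7.12 in the arrays labelled Astro-D2KO SE, against 9.51, 9.11, 9.24 and 7.99 in those labelled control SE (difference -1.41, exact permutation p = 0.0571). The array labelled Astro-D2KO SE replicate 1 thus lay above the other 3 of its group and inside the range of the arrays labelled control SE, and a lower level than in the other 3 was found in the array labelled control SE replicate 4. Dio2 goes against the label of Astro-D2KO SE replicate 1. Control SE replicate 4, at 7.99, was low for its group. It lay within the control saline range (7.87 to 8.28) and above the other 3 arrays labelled Astro-D2KO SE (at most 7.17). An exchange of labels was not tested. Group names below follow the labels, which bears on every genotype comparison after SE, while both arrays are labelled SE. Results on SE were therefore also computed without both arrays. No source used here says which exons of Dio2 the probe set covers, so its position relative to the deletion is unknown. Neuronal markers (8 of 8 measured) averaged 10.99 to 11.13 on every array, and the choroid plexus list (7 of 8 measured) varied from 5.92 to 8.27 between arrays without a called gene in any comparison.

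SE raised most of the set in both genotypes, and no member passed the test for a difference between genotypes. By limma with adjustment over all genes, 8 of the 9 measured genes rose in Astro-D2KO mice and 1 fell, against a background of 7.49% of all genes that rose and 12.6% that fell. In control mice 7 of the 9 rose and 1 fell, against 8.42% and 13.7% of all genes. The members were chosen with earlier results of these data known, so these counts describe the set and are no independent test of it. The median change of the 9 genes was 0.59 in Astro-D2KO mice and 0.79 in control mice, where the medians of all genes were -0.01 and -0.02. Without the 2 arrays with doubtful Dio2 levels, 7 of the 9 rose and 0 fell in each genotype. Of all 22180 genes, 1516 then rose and 2527 fell in Astro-D2KO mice, and 1732 rose and 2967 fell in control mice. The SE and saline arrays did not overlap for 8 of the 9 genes in Astro-D2KO mice and for 8 of the 9 in control mice. The share of all genes without such overlap was not counted, so these 2 counts only describe the members. The changes fell into a large class (Gadd45g, Gadd45b, Cdkn1a and Btg2, from 1.91 to 3.41) and a small class (the other 5 genes, at most 0.79 in size). In bulk tissue a change in the number of cells of a type and a change in RNA per cell cannot be told apart.

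**Figure D1:**
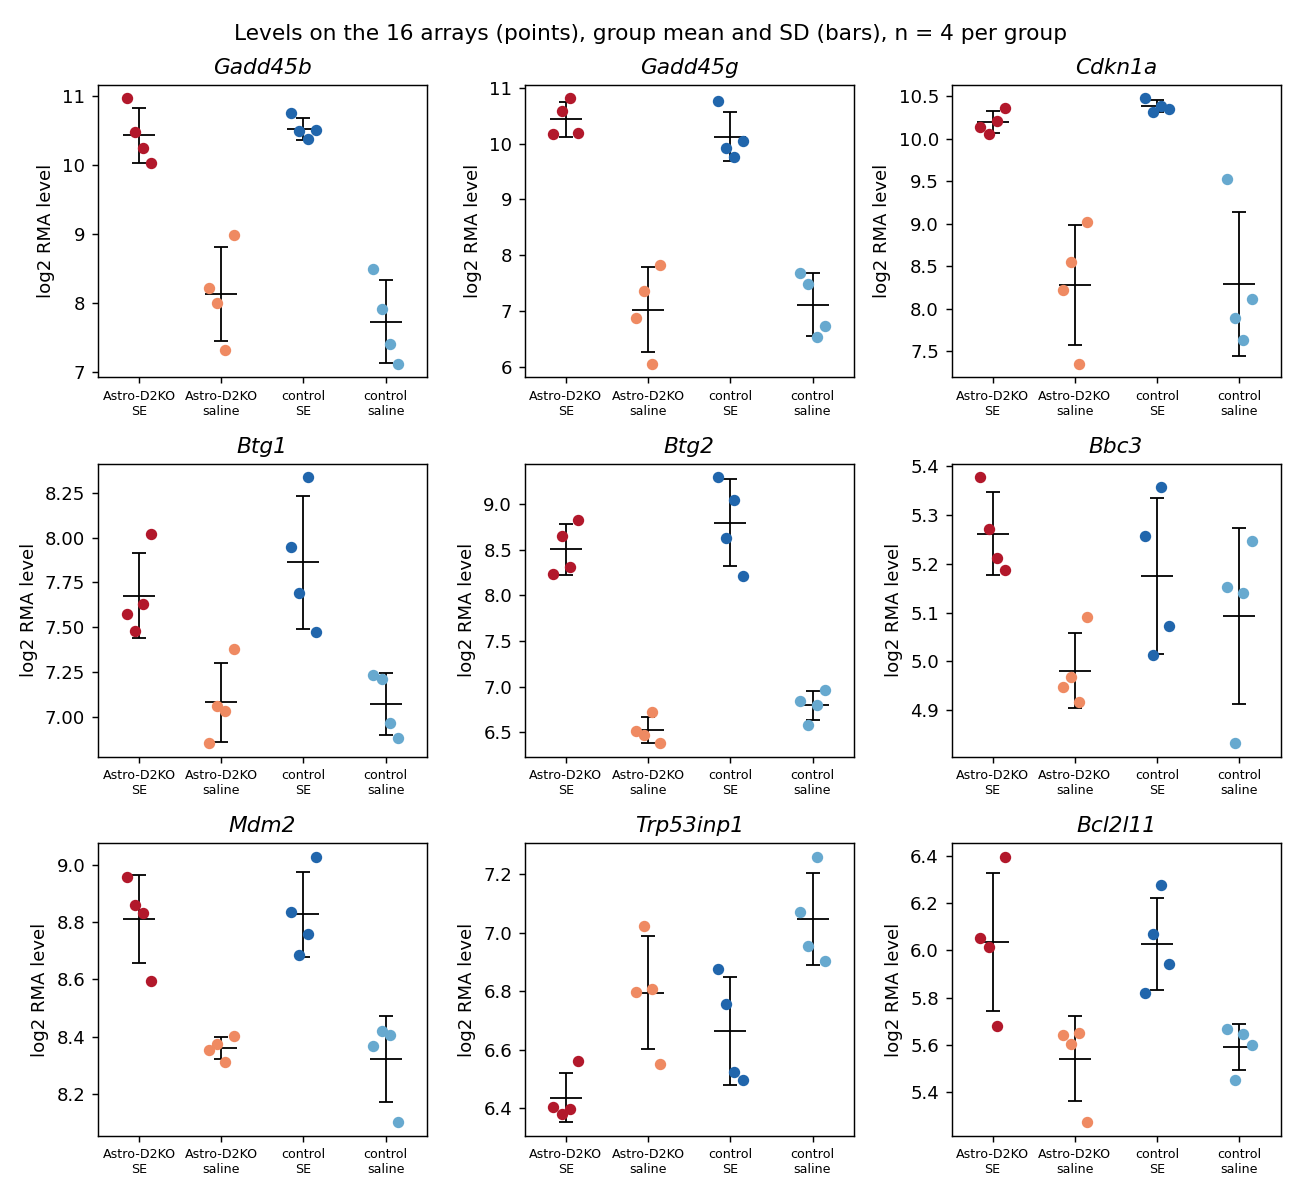
Log2 RMA level (vertical axis) of each of the 9 measured genes on the 16 arrays, by group; points are arrays, bars the group mean and SD (n = 4). The SE groups lie above the saline groups for 7 genes in both genotypes, Bbc3 overlaps in control mice, and Trp53inp1 lies lower after SE.

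The GADD45 proteins are small stress sensors that bind the kinase MTK1 (Map3k4), the replication clamp PCNA and p21, and that take part in active DNA demethylation in neurons. Gadd45g stood at 10.17, 10.58, 10.81 and 10.19 in Astro-D2KO SE mice, against 6.87, 7.37, 6.05 and 7.82 in Astro-D2KO saline mice. In control mice it stood at 10.76, 9.93, 9.76 and 10.04 after SE, against 7.68, 7.49, 6.53 and 6.73 under saline. Every SE array lay far above every saline array, and Gadd45g had the largest change of the set in both genotypes. The rise was 3.41 ± 0.33 (standard error of the fit, 10.7-fold, adjusted p = 1.28e-06) in Astro-D2KO mice and 3.02 ± 0.33 (8.09-fold, adjusted p = 4.84e-06) in control mice.

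Gadd45b, the family member best known as an activity-induced gene of the dentate gyrus, stood at 10.96, 10.47, 10.25 and 10.03 in Astro-D2KO SE mice, against 8.21, 7.99, 7.31 and 8.98 in Astro-D2KO saline mice. In control mice it stood at 10.75, 10.49, 10.37 and 10.50 after SE, against 8.49, 7.90, 7.40 and 7.11 under saline. The groups did not overlap in either genotype. Gadd45b rose by 2.30 ± 0.30 (4.93-fold, adjusted p = 4.06e-05) in Astro-D2KO mice and by 2.80 ± 0.30 (6.95-fold, adjusted p = 4.90e-06) in control mice.

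Cdkn1a encodes p21, the inhibitor of cyclin-dependent kinases through which p53 halts the cell cycle. It stood at 10.14, 10.06, 10.21 and 10.36 in Astro-D2KO SE mice, against 8.21, 8.55, 7.35 and 9.02 in Astro-D2KO saline mice. In control mice it stood at 10.48, 10.31, 10.39 and 10.35 after SE, against 9.52, 7.89, 7.63 and 8.12 under saline. The SE arrays were tightly grouped and the saline arrays spread widely: the SD was 0.13 in Astro-D2KO SE mice against 0.71 in Astro-D2KO saline mice, and 0.07 in control SE mice against 0.85 in control saline mice. Control saline replicate 1 came within 1 log2 unit of the control SE arrays. The rise was 1.91 ± 0.33 (3.76-fold, adjusted p = 0.000565) in Astro-D2KO mice and 2.09 ± 0.33 (4.26-fold, adjusted p = 0.000222) in control mice. Without control saline replicate 1 the rise in control mice was 2.50.

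BTG1 and BTG2 are small antiproliferative proteins that recruit the CCR4-NOT deadenylase to messenger RNA, and BTG2 is also a p53 target and an immediate early gene of neurons. Btg2 stood at 8.23, 8.65, 8.31 and 8.83 in Astro-D2KO SE mice, against 6.51, 6.47, 6.73 and 6.39 in Astro-D2KO saline mice. In control mice it stood at 9.29, 8.63, 9.05 and 8.21 after SE, against 6.84, 6.58, 6.80 and 6.96 under saline. Here the saline arrays were the tight ones, and no array came near the other treatment. Btg2 rose by 1.98 ± 0.18 (3.95-fold, adjusted p = 9.05e-07) in Astro-D2KO mice and by 2.00 ± 0.18 (4.00-fold, adjusted p = 7.77e-07) in control mice, the smallest adjusted p-values of the set. Its paralogue Btg1 changed less. Btg1 stood at 7.58, 7.48, 7.63 and 8.02 in Astro-D2KO SE mice, against 6.85, 7.06, 7.03 and 7.38 in Astro-D2KO saline mice. It stood at 7.95, 7.69, 8.34 and 7.47 in control SE mice, against 7.23, 7.21, 6.97 and 6.88 in control saline mice. The rises of Btg1 were 0.59 ± 0.16 (adjusted p = 0.0150) in Astro-D2KO mice and 0.79 ± 0.16 (adjusted p = 0.00195) in control mice. In Astro-D2KO mice the call was lost without Astro-D2KO saline replicate 1 (0.52, adjusted p = 0.0553) and without Astro-D2KO SE replicate 4 (0.48, adjusted p = 0.0569).

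Promoter sequence is shown for Cdkn1a and Mdm2, the textbook p53 targets, and for the other genes of the large class, because the genes rose together. RefSeq windows on GRCm38.p6, from 250 bases before to 50 after a transcript start, were held for 8 of the 9 measured genes (12 windows; Trp53inp1 had none). The lines give the 250 bases upstream, 5′ to 3′ on the strand of the gene. Capitals mark the cyclic AMP response element CRE (TGACGTCA), its short core TGACG, the p53 decamer and the CCAAT box (CCAAT), on either strand. For Cdkn1a, the window of the more upstream start is shown. The other Cdkn1a window held none of the marked motifs.
Cdkn1a, chr17:29090729-29090978, plus strand: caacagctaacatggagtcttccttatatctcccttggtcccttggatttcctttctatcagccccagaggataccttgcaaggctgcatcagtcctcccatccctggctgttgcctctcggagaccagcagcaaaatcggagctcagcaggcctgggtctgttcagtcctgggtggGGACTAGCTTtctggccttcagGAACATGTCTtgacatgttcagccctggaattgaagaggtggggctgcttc
Mdm2, chr10:117710759-117711008, minus strand: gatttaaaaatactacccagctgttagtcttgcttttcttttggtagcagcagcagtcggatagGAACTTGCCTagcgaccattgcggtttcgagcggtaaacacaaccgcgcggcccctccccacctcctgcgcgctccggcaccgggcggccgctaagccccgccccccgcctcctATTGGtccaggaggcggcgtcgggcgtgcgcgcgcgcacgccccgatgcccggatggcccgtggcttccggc
Btg2, chr1:134079156-134079405, minus strand: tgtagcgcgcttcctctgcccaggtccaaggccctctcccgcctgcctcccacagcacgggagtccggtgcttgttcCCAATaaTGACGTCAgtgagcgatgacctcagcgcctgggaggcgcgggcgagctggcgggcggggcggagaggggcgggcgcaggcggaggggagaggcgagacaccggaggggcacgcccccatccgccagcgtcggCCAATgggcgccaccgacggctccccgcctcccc
Gadd45b, chr10:80929841-80930090, plus strand: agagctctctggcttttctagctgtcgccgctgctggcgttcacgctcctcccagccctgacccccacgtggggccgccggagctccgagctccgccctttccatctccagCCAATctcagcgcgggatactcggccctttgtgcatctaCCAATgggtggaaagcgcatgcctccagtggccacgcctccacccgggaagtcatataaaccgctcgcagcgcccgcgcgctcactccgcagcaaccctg
Gadd45g, chr13:51846425-51846674, plus strand: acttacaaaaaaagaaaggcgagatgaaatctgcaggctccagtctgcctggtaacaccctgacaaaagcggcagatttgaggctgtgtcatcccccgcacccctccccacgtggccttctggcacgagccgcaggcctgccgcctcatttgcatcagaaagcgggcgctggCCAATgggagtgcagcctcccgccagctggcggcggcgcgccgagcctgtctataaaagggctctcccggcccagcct

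The full CRE, found in 1.79% of all 32851 windows of the genome table, was found among these genes only in Btg2, starting 166 bases before the start. The short core, which the full CRE contains, was in 4 of the 12 windows (Bbc3, Btg1, Btg2 and Mdm2) and in 20.8% of all windows. The p53 decamer was in windows of Cdkn1a and Mdm2 and in 8.36% of all windows; the upstream Cdkn1a window held 2, starting 73 and 51 bases before that start. The Gadd45b and Gadd45g windows held CCAAT boxes, which 37.4% of all windows do. No window of the 8 genes held the AP-1 motif TGANTCA, present in 7.81% of all windows. These are letter matches, and no binding was measured.

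Mdm2, the feedback inhibitor of p53, rose modestly. It stood at 8.96, 8.86, 8.83 and 8.59 in Astro-D2KO SE mice, against 8.35, 8.37, 8.31 and 8.40 in Astro-D2KO saline mice. It stood at 8.84, 8.69, 8.76 and 9.03 in control SE mice, against 8.37, 8.42, 8.41 and 8.10 in control saline mice. No SE array overlapped a saline array, though the distance was small. The rises were 0.45 ± 0.10 (1.37-fold, adjusted p = 0.00281) in Astro-D2KO mice and 0.50 ± 0.10 (1.42-fold, adjusted p = 0.00104) in control mice.

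The BH3-only proteins PUMA (Bbc3) and BIM (Bcl2l11) trigger mitochondrial cell death by binding the survival members of the BCL2 family; PUMA is the p53 target of the pair. Bcl2l11 stood at 6.05, 6.01, 5.68 and 6.40 in Astro-D2KO SE mice, against 5.64, 5.61, 5.65 and 5.27 in Astro-D2KO saline mice. It stood at 5.82, 6.07, 6.28 and 5.94 in control SE mice, against 5.67, 5.45, 5.65 and 5.60 in control saline mice. The groups were separate but nearly touched: Astro-D2KO SE replicate 3 lay just above the highest Astro-D2KO saline array. The mean level of Bcl2l11 over the 16 arrays, 5.80, was below that of the median gene, 6.26. Bcl2l11 rose by 0.49 ± 0.13 (adjusted p = 0.0131) in Astro-D2KO mice and by 0.44 ± 0.13 (adjusted p = 0.0244) in control mice. The control call was lost when replicate 2 of the control SE mice (0.42, adjusted p = 0.0525) or replicate 3 of the same group (0.35, adjusted p = 0.0874) was left out, and when replicate 2 of the control saline mice was (0.39, adjusted p = 0.0742).

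Bbc3 was the member with the smallest change. It also had the lowest mean level of the 9 over the 16 arrays, 5.13, with 27.7% of genes at or below it. Without detection calls, a small change at so low a level cannot be read as a lack of response. It stood at 5.38, 5.27, 5.21 and 5.19 in Astro-D2KO SE mice, against 4.95, 4.97, 4.92 and 5.09 in Astro-D2KO saline mice. It stood at 5.26, 5.01, 5.36 and 5.07 in control SE mice, against 5.15, 4.83, 5.14 and 5.25 in control saline mice, which overlap. The rise in Astro-D2KO mice was 0.28 ± 0.10 (1.22-fold, adjusted p = 0.0486), and the difference in control mice was 0.08 ± 0.10 (adjusted p = 0.617). The Astro-D2KO call rested on a narrow margin. It was lost in 10 of the 16 fits that left out 1 array: control saline replicates 1 and 3, control SE replicate 1, Astro-D2KO saline replicates 1 to 3, and Astro-D2KO SE replicates 1 to 4, with adjusted p from 0.0542 to 0.131. It was also lost when both arrays with doubtful Dio2 levels were left out (0.24, adjusted p = 0.127). The responses of the 2 genotypes differed by 0.20 (95% interval -0.09 to 0.49, adjusted p = 0.998), so a genotype difference of Bbc3 was not shown.

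Trp53inp1, a p53-induced gene whose product acts with p53 in stress responses and autophagy, was the member that fell. It stood at 6.40, 6.38, 6.40 and 6.56 in Astro-D2KO SE mice, against 6.80, 7.02, 6.81 and 6.55 in Astro-D2KO saline mice. It stood at 6.88, 6.76, 6.52 and 6.50 in control SE mice, against 7.07, 6.96, 7.26 and 6.90 in control saline mice. The control groups only just separated, and in Astro-D2KO mice saline replicate 4 lay among the SE arrays. It fell by 0.36 ± 0.11 in Astro-D2KO mice (adjusted p = 0.0277) and fell by 0.38 ± 0.11 in control mice (adjusted p = 0.0179). The Astro-D2KO call was lost without Astro-D2KO saline replicate 1, 2 or 3 or any of the arrays labelled Astro-D2KO SE replicate 1, 2 or 3 (adjusted p from 0.0590 to 0.0968). Leaving out replicate 3 or 4 of the control SE mice, or replicate 3 of the control saline mice, ended the control call (adjusted p from 0.0550 to 0.0692). Without both doubtful arrays the change was -0.35 in Astro-D2KO mice (adjusted p = 0.0552) and -0.33 in control mice (adjusted p = 0.0650), and with quantile normalisation repeated it was -0.31 in both (adjusted p = 0.0601 and 0.0578).

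The response was next compared between genotypes, the question the floxed Dio2 allele was made for. Limma called 0 of the 9 genes, and 0% of all genes in either direction, for Astro-D2KO against control under saline, for Astro-D2KO against control after SE and for the difference of the SE responses. The targeted gene Dio2 is among the genes not called, though it differed by -1.36 under saline and -1.41 after SE. The test thus missed a gene known to be targeted, which limits what 0 calls can say of the members. The fit shared a spread over the 4 groups. The SD of Dio2 was 0.91 in Astro-D2KO SE and 0.67 in control SE mice, against 0.23 in Astro-D2KO saline and 0.19 in control saline mice. The part of that spread in the missed call was not tested. At an unadjusted p under 0.05 the counts of members were 1, 0 and 0, and those of all genes 885, 1358 and 1031. The 1 member was Trp53inp1, with a difference of -0.25 under saline (95% interval -0.48 to -0.02, adjusted p = 0.999), with a difference of -0.23 after SE (-0.46 to 0.00, adjusted p = 0.823). The difference of the SE responses, Astro-D2KO minus control, was -0.49 for Gadd45b (95% interval -1.40 to 0.41), 0.40 for Gadd45g (-0.57 to 1.37), -0.18 for Cdkn1a (-1.17 to 0.81) and -0.02 for Btg2 (-0.57 to 0.53). These intervals come from all 16 arrays, with both arrays of doubtful Dio2 level included. They leave room for differences of more than 1 log2 unit for Gadd45b, Gadd45g and Cdkn1a. They were narrower for Mdm2 (-0.05, -0.34 to 0.23), Bcl2l11 (0.06, -0.34 to 0.45), Trp53inp1 (0.02, -0.31 to 0.35) and Btg1 (-0.19, -0.68 to 0.29). A comparison that misses the threshold does not show that the genotypes respond alike.

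**Figure D2:**
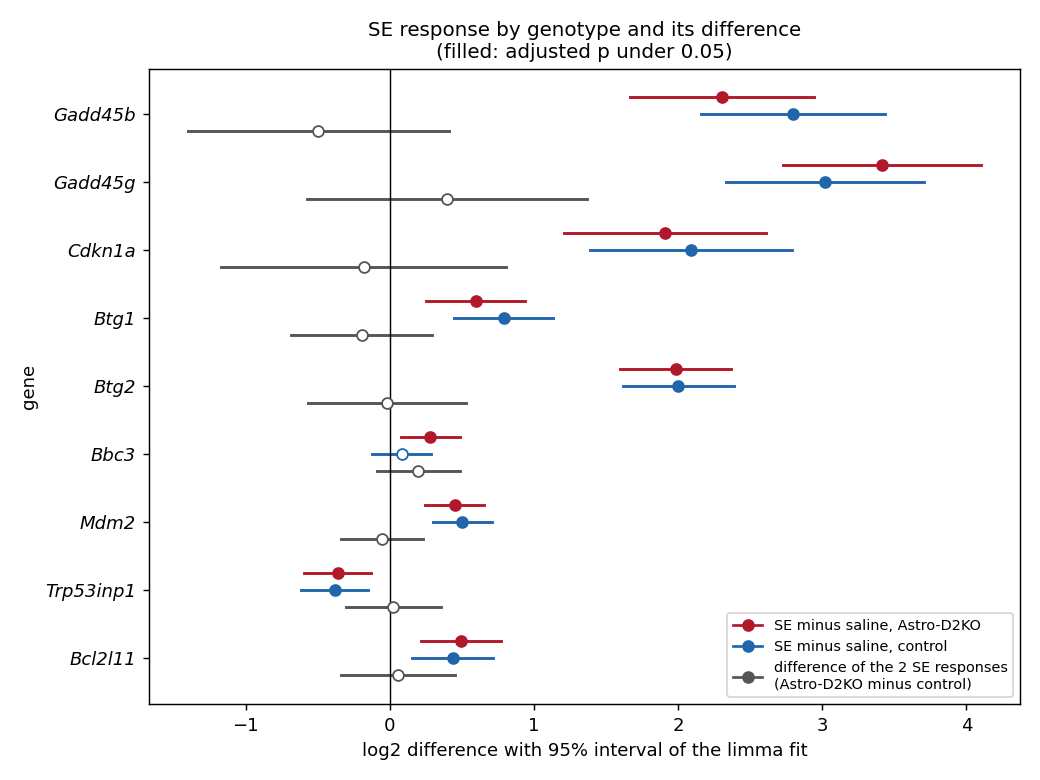
Log2 difference (horizontal axis) with its 95% interval for the SE response in Astro-D2KO mice (upper of each trio), in control mice (middle) and for their difference (lower), for the 9 measured genes. Filled points passed an adjusted p of 0.05. Intervals of the SE response lie above 0 for 7 genes in both genotypes, and every interval of the difference spans 0.

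The saline mice varied most in Gadd45b, Gadd45g and Cdkn1a, and those 3 genes varied together. Astro-D2KO saline replicate 4 was the highest and replicate 3 the lowest of its group for all 3, and control saline replicate 1 was the highest of its group for all 3. Over the 16 arrays, deviations from the group means correlated at r = 0.74 between Gadd45b and Gadd45g, 0.73 between Gadd45b and Cdkn1a and 0.73 between Gadd45g and Cdkn1a. For Btg2, r was -0.29, -0.10 and -0.03 with Gadd45b, Gadd45g and Cdkn1a. The arrays share their hybridisation and normalisation, and the correlations are a description. The second principal component of all genes, which held 10.8% of the variance, ran from 14.4 in Astro-D2KO saline replicate 4 to -11.6 in replicate 3, and from 12.3 in control saline replicate 1 to -14.6 in replicate 4. The highest score of the 16 arrays, 19.5, was that of the array labelled control SE replicate 4, against -11.2 to -16.3 in the other 3 of that group, and Dio2 is among the genes at the negative end of the component. Gadd45b ranked the 4 saline arrays of each genotype in exactly the order of that component. In the SE groups the rank correlation of Gadd45b with the component over 4 arrays was -0.2 in Astro-D2KO mice and 0.4 in control mice. Btg1 also ranked the control saline arrays in that order, but its rank correlation was 0.4 in Astro-D2KO saline mice and -1.0 in control SE mice. What the component stands for was not tested.

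**Figure D3:**
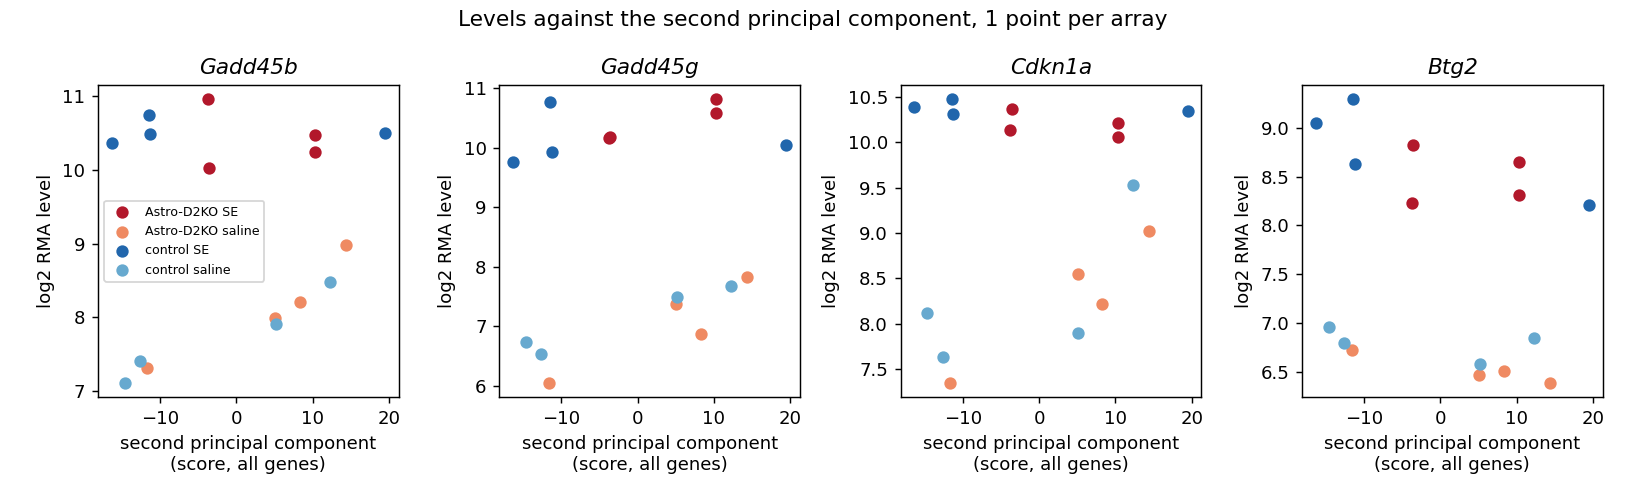
Log2 RMA level (vertical axis) of Gadd45b, Gadd45g, Cdkn1a and Btg2 against the score of each array on the second principal component of all genes (horizontal axis); 1 point is 1 array, coloured by group. Gadd45b follows the score in the saline arrays of both genotypes, and Gadd45g does so less strictly (rank correlation 0.8 in each). For Cdkn1a the rank correlation is 0.8 in Astro-D2KO saline and 0.4 in control saline mice. The SE arrays of all 4 genes lie above the saline arrays.

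Genes that followed the large class most closely within groups were found by Pearson correlation of deviations from the group mean over the 16 arrays, given as a description. For Gadd45g they were Scg2, a granin (r = 0.91), C3ar1, a complement receptor (0.87), and Odc1, the first enzyme of polyamine synthesis (0.87). For Gadd45b they were Nav2, a neuron navigator (0.93), Abhd12, a lipase (0.90), and Rcan1, a calcineurin inhibitor (0.90). For Cdkn1a they were Plat, tissue plasminogen activator (0.93), the nuclear protein gene Csrnp1 (0.91) and Glp2r, a peptide hormone receptor (0.90). For Btg2 they were H2-Ob, a class II histocompatibility gene (0.91), and the immediate early transcription factors Npas4 (0.86) and Nr4a1 (0.86). Without the arrays labelled Astro-D2KO SE replicate 1 and control SE replicate 4, r stayed between 0.88 and 0.97 for the Gadd45g, Gadd45b and Cdkn1a partners, and was 0.80, 0.81 and 0.69 for those of Btg2.

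Other p53 targets were called in both directions. Of 28 other p53 target genes measured (32 listed), 6 rose and 7 fell in Astro-D2KO mice, and 6 rose and 7 fell in control mice, with list medians of -0.02 and 0.02. The corresponding shares of all genes were 7.49% and 12.6% in Astro-D2KO mice and 8.42% and 13.7% in control mice. The rises were led by Plk2 (1.22 in Astro-D2KO and 1.18 in control mice) and Plk3 (1.05 and 1.26), polo-like kinases that neurons induce with activity, and by Sesn2 (1.21 and 0.85), a stress-induced inhibitor of mTORC1 signalling. Its paralogue Sesn1 fell, by 0.65 ± 0.15 in Astro-D2KO mice and by 0.53 ± 0.15 in control mice. Ei24, Rrm2b, Xpc, Polk and Ak1 also fell in both genotypes. Apaf1 was called lower only in Astro-D2KO mice and Tigar only in control mice. The other genes that rose in both genotypes were the death receptor genes Fas (0.96 in Astro-D2KO and 0.98 in control mice) and Tnfrsf10b (0.66 and 0.50), and Pmaip1.

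Among p53, its regulators and the damage kinases (13 of 14 measured; Trp53 not analysed here), 3 rose and 3 fell in Astro-D2KO mice, and 6 rose and 2 fell in control mice. The shares of all genes that rose and fell were 7.49% and 12.6% in Astro-D2KO mice and 8.42% and 13.7% in control mice; the 2 of 13 that fell in control mice are near that share. Chek1, a checkpoint kinase, rose by 0.93 ± 0.16 in Astro-D2KO mice and 0.98 ± 0.16 in control mice (adjusted p = 0.000478 and 0.000280). Cop1, a ubiquitin ligase that targets p53 and Jun, rose by 0.81 ± 0.14 and 0.95 ± 0.14 (adjusted p = 0.000487 and 9.64e-05). The apical damage kinases went the other way: Atm fell by 0.73 ± 0.08 in Astro-D2KO mice and 0.61 ± 0.08 in control mice (adjusted p = 6.46e-06 and 4.18e-05). Atr fell by 0.69 ± 0.10 and 0.43 ± 0.10 (adjusted p = 8.34e-05 and 0.00411). Mdm4 was also called lower in Astro-D2KO mice (-0.29). The other genes called higher were Trp53bp1 in both genotypes (0.32 in Astro-D2KO and 0.27 in control mice), and Ppm1d, Hipk2 and Usp7 in control mice only. Different counts in the genotypes do not by themselves show a difference between them. For the difference of the responses 0 genes of these lists were called, which does not show that the genotypes respond alike.

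In the BCL2 family (15 of 19 measured), 3 rose and 2 fell in Astro-D2KO mice, and 3 rose and 1 fell in control mice. Of all genes, 7.49% rose and 12.6% fell in Astro-D2KO mice and 8.42% rose and 13.7% fell in control mice, and the counts that fell lie near those shares. Mcl1, a short-lived survival factor, rose by 0.98 ± 0.16 in Astro-D2KO mice and 1.10 ± 0.16 in control mice (adjusted p = 0.000293 and 9.02e-05). Hrk, a neuronal BH3-only killer gene, fell by 0.76 ± 0.16 and 0.92 ± 0.16 (adjusted p = 0.00220 and 0.000409). Pmaip1 (NOXA), a p53-induced BH3-only gene also counted among the p53 targets, rose by 0.46 ± 0.14 in Astro-D2KO mice and 0.55 ± 0.14 in control mice (adjusted p = 0.0296 and 0.00948). The Pmaip1 call in Astro-D2KO mice was lost without Astro-D2KO saline replicate 2 or 3 or Astro-D2KO SE replicate 1 or 3, and without both doubtful arrays, with adjusted p up to 0.0979. No gene of the family was called between genotypes.

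Relatives of Cdkn1a, Btg1 and Btg2 were called about as often as genes at large, of which 7.49% rose and 12.6% fell in Astro-D2KO mice and 8.42% rose and 13.7% fell in control mice, so their counts are no result about the lists. Of 7 other inhibitors of cyclin-dependent kinases (7 listed), 0 rose and 0 fell in Astro-D2KO mice, and 1 rose and 0 fell in control mice. The 1 was Cdkn3, a phosphatase of cyclin-dependent kinases (0.51 ± 0.13, adjusted p = 0.00862), with 0.32 ± 0.13 in Astro-D2KO mice (adjusted p = 0.107). Of 8 other BTG and TOB genes and CCR4-NOT subunits (11 listed), 0 rose and 2 fell in Astro-D2KO mice, Cnot2 (-0.31 ± 0.07) and Cnot7 (-0.29 ± 0.07). In control mice 0 rose and 2 fell, Cnot8 (-0.33 ± 0.08) and Cnot2 (-0.26 ± 0.07, adjusted p = 0.0158). The Cnot2 call in control mice was lost without control saline replicate 2 and with only the control groups fitted (adjusted p up to 0.0621).

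**Figure D4:**
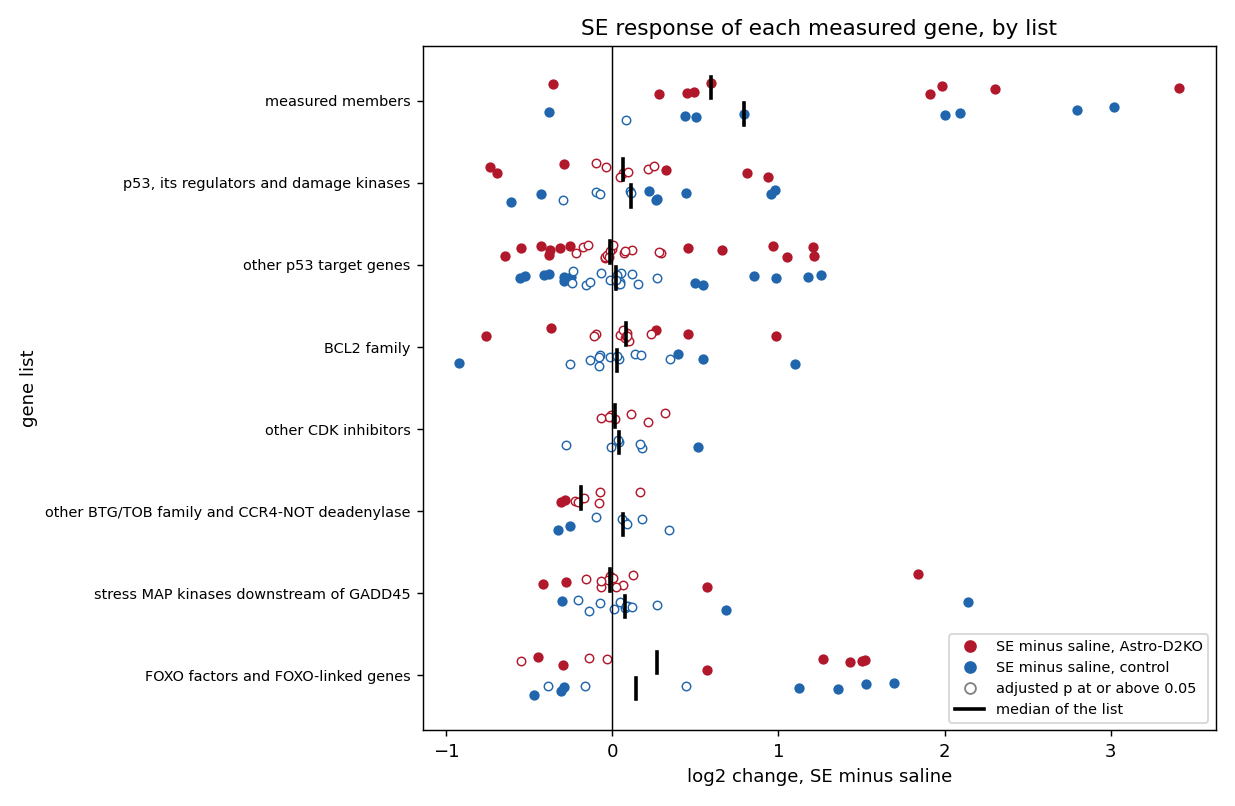
Log2 change, SE minus saline (horizontal axis), of every measured gene of the set and of 7 related lists (rows), in Astro-D2KO mice (upper band of each row) and control mice (lower band); filled points passed an adjusted p of 0.05 and black ticks are list medians. The set has medians of 0.59 and 0.79, and the list of other p53 targets medians of -0.02 and 0.02.

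Levels of some cell type markers differed between SE and saline. Of all genes, 7.49% rose and 12.6% fell in Astro-D2KO mice, and 8.42% rose and 13.7% fell in control mice. Counts of called markers near these shares are no result about a list. The mean level of 7 dividing-cell markers (8 listed) was 5.48 to 5.59 in Astro-D2KO SE mice against 5.29 to 5.35 in Astro-D2KO saline mice, and 5.46 to 5.78 in control SE mice against 5.34 to 5.40 in control saline mice; 1 of the 7, Pcna, was called in each genotype (1.04 in Astro-D2KO and 1.52 in control mice). The median change of the 7 was 0.10 in Astro-D2KO mice and 0.02 in control mice, so the higher list mean rests mainly on Pcna, which is also a DNA repair gene. The mean of 7 microglia markers (8 listed) was 7.33 to 7.64 in Astro-D2KO SE mice against 7.77 to 7.85 in Astro-D2KO saline mice. It was 7.30 to 7.63 in control SE mice against 7.60 to 7.86 in control saline mice. In each genotype 2 of the 7 were called lower, P2ry12 and Csf1r in Astro-D2KO mice and Cx3cr1 and P2ry12 in control mice. The mean of 8 dentate granule cell markers was 6.96 to 7.18 in Astro-D2KO SE mice against 6.91 to 7.73 in Astro-D2KO saline mice, and 6.77 to 7.36 in control SE mice against 7.28 to 7.83 in control saline mice, with 2 and 3 of 8 lower and overlapping arrays in both genotypes. The mean of 7 oligodendrocyte markers (8 listed) was 8.95 to 9.35 in Astro-D2KO SE mice against 9.39 to 9.52 in Astro-D2KO saline mice, without overlap and with Mbp and Mag lower, and 9.33 to 9.71 in control SE mice against 9.45 to 9.62 in control saline mice, with 0 called. The mean of 5 CA1 pyramidal cell markers (6 listed) was 7.73 to 8.08 in Astro-D2KO SE mice against 7.73 to 8.04 in Astro-D2KO saline mice, and 7.68 to 7.81 in control SE mice against 7.98 to 8.16 in control saline mice, without overlap in control mice, where Spink8 was lower. Of 8 endothelial markers, Pecam1, Flt1 and Cdh5 were higher and Slco1a4 lower in both genotypes. Their part in the changes above was not tested.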

How the data were processed

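Hippocampal RNA was measured on 16 Affymetrix arrays, each titled as a numbered mouse. RMA produced the deposited values, per the submitters' processing notes. They were read as log2 levels from their range, since the authors' table names no log base (values between 1.70 and 13.8). Of 41345 probe sets, 23521 carried exactly 1 gene symbol in the platform annotation, 1814 several and 16010 none. Each gene was represented by its probe set of highest mean level, which left 22180 genes, unfiltered. No array was identical to another. Groups come from the sample titles.

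Group means were fitted with limma 3.58.1 (R 4.3.3), with a spread shared by the 4 groups (12 residual degrees of freedom); tests were two-sided, with Benjamini-Hochberg adjustment over all genes per comparison and a threshold of 0.05. An error after ± is the standard error of this fit. Dio2 was tested by exact permutation (70 arrangements). Arrays have no read depth, so their number limits the precision, and the file holds no detection calls. The members and lists were chosen with earlier results of these data known. All members are named. Of each related list, up to 3 called genes with the largest SE change are named. Other names are marked as picked later or answer a count, except Map3k4, picked because GADD45 proteins bind it. Alternatives covered probe set choice, a level filter, scaling, the prior, the groups fitted, a replicate block and left-out arrays. Motifs and sequences come from RefSeq tables (GRCm38.p6).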

Additional observations from a re-analysis of the deposited data

Results flagged for a closer look

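Of 36 sets of 4 arrays (9 genes in 4 groups), 3 held an array far from the other 3 by Dixon's criterion, where chance gives about 1 in 20. Trp53inp1 stood at 6.56 in Astro-D2KO SE replicate 4, above the other 3 arrays of that group. Bcl2l11 stood at 5.27 in Astro-D2KO saline replicate 4, below the other 3, and without that array its rise in Astro-D2KO mice remained called. Mdm2 stood at 8.10 in control saline replicate 4, below the other 3, and its rise in control mice was called in all 24 alternatives. No explanation for these arrays was tested.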

How the results depend on the processing

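The rises of Gadd45b, Gadd45g, Cdkn1a, Btg2 and Mdm2 kept their direction and stayed past the threshold in all 24 alternatives in both genotypes (16 that left out 1 array and 8 others); Btg1 did so in control mice and Bcl2l11 in Astro-D2KO mice, the level filter removing Bcl2l11 and Bbc3. The count of members that rose ranged from 6 to 8 in Astro-D2KO mice and from 6 to 7 in control mice when 1 array was left out; the count that fell ranged from 0 to 1 in both. The count that fell was 0 in both genotypes with quantile normalisation repeated and without both doubtful arrays. The Bbc3 call in Astro-D2KO mice was also lost with quantile normalisation (adjusted p = 0.0683) and with a trended robust prior (0.0593). Genotype comparisons called 0 members in every alternative. Over all genes they called up to 1 gene, in 2 of the single leave-outs (Astro-D2KO against control after SE, 0 to 1 higher and 0 to 1 lower) and with only the saline groups fitted (1 lower); without both doubtful arrays the counts were 1 lower under saline, 1 higher and 4 lower after SE, and 1 higher for the difference of the responses. The cause was not tested. Same-numbered arrays did not deviate together (r from -0.29 to 0.34, 1 of 16 pairs over 0.1, best with its own number in 2 of 16 checks), so the numbers were not used as pairs. With the replicate block, 7 members rose and 1 fell in Astro-D2KO mice (Bbc3 lost, adjusted p = 0.0559), 7 rose and 1 fell in control mice, and over all genes 1569 rose and 2540 fell in Astro-D2KO mice and 1773 rose and 2803 fell in control mice. Fits of each further probe set of a member were not run, since each member had 1.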

Other observations

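The list of stress MAP kinases drawn up around GADD45 signalling included 1 of the larger changes. An action of GADD45 on the kinases named next was not tested. Map3k5 (ASK1), a kinase that feeds p38 and JNK, rose by 1.84 ± 0.15 in Astro-D2KO mice and 2.14 ± 0.15 in control mice (adjusted p = 2.34e-07 and 4.16e-08). Map2k3, a p38 activator, rose by 0.57 ± 0.16 and 0.69 ± 0.16 (adjusted p = 0.0167 and 0.00467); the Astro-D2KO call was lost without Astro-D2KO saline replicate 2 or 3 or Astro-D2KO SE replicate 3, with adjusted p up to 0.0616. Mapk14, which encodes p38 alpha, fell by 0.42 ± 0.08 and 0.30 ± 0.08 (adjusted p = 0.00126 and 0.0103). In all, 2 of 13 rose and 2 fell in Astro-D2KO mice, and 2 rose and 1 fell in control mice, against 7.49% and 12.6% of all genes in Astro-D2KO mice and 8.42% and 13.7% in control mice that rose and fell, so the counts that fell are near those of genes at large. Map3k4, the kinase GADD45 proteins bind, had differences of -0.01 in Astro-D2KO mice and 0.07 in control mice that did not pass.

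Of 10 FOXO factors and FOXO-linked genes, 5 rose and 2 fell in Astro-D2KO mice, and 4 rose and 3 fell in control mice, where the shares of all genes were 7.49% and 12.6% in Astro-D2KO mice and 8.42% and 13.7% in control mice. Irs2, an insulin receptor substrate, rose by 1.50 ± 0.12 in Astro-D2KO mice and 1.52 ± 0.12 in control mice, Klf6 by 1.52 ± 0.19 and 1.36 ± 0.19, and Trib1, a pseudokinase, by 1.43 ± 0.22 and 1.70 ± 0.22 (adjusted p from 1.18e-07 to 0.000152). Sgk1 also rose in both genotypes, and Foxo1 was called higher in Astro-D2KO mice only. Foxo3 (-0.30 in Astro-D2KO and -0.31 in control mice) and Pik3ip1 (-0.45 and -0.47) fell in both genotypes. Foxo6 was called lower in control mice only (-0.29).

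The second principal component, along which Gadd45b ordered the saline arrays, had Trh, Olfm4, Timp1, Gldn and Scube1 at its positive end and Ttr, Tdo2, Dio2, Npas4 and Etnppl at its negative end. Gadd45b ranked 491, Gadd45g 352 and Cdkn1a 630 from the positive end of 22180 genes, and Btg2 ranked 22116. These genes were looked up after the order was seen.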
